A study of Brassica napus with 48 samples.

Results

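A set of 26 of 22746 non-control probe sets had their highest level in middle-sized buds of both fertile lines of rapeseed, Brassica napus. They were chosen by levels on the fertile arrays, and by those alone. In fertile J10 and in fertile J03, the mean log2 of the signal plus an offset of about 110 had to be higher in middle buds, by at least 1, than in small and in large buds, and the mean signal of middle buds had to reach 500. The peak in fertile buds is therefore how the 26 were found and is given as a description. No level in sterile buds enters the rule. Of the 26, 10 are annotated with 1 Arabidopsis gene each, and the other 16 have no gene name here and are called by their probe set.

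RNA from whole flower buds of 48 samples was hybridised to Affymetrix ATH1 arrays, which carry Arabidopsis sequences. Sterile J10 (J10A) has the genotype MsMsrfrf and fertile J10 (J10B) MsMsRfrf, so both carry the dominant sterility allele Ms on both chromosomes and differ at the restorer locus Rf. Sterile J03 (J03A) is Msmsrfrf and fertile J03 (J03B) msmsrfrf, so both lack the restorer and differ at Ms. All plants grew in a field. Buds under 1 mm (small), of 1 to 3 mm (middle) and over 3 mm (large) stand for the tetrad, uninucleate and trinucleate stages of pollen development per the labels, and were pooled from several plants. Each of the 12 groups of line, fertility and size holds 4 arrays, read here as 2 replicates with 2 hybridisations each. J10 and J03 are separate lines, so their differences are not those of 1 locus. A gene name here stands for the probe set designed for that Arabidopsis gene, to which several rapeseed copies may bind, and whether line differences come from copies that bind unequally was not tested.

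Pollen forms inside the anther, where meiosis yields tetrads of microspores. The tapetum, the innermost layer of the anther wall, surrounds them, secretes the enzymes that free them from the tetrad, and supplies nutrients and material for the pollen wall and coat. It is most active around the release of the microspores and later breaks down, and many of its transcripts appear and disappear within this window in Arabidopsis. In dominant genic male sterility, a nuclear allele stops pollen development, and a restorer allele can undo that.

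Signals were on 1 scale when deposited, with median signals per array of 339 to 410.1. Arrays of a group correlated at 0.748 to 0.882 over 72 pairs. Of 5 tested genes of maturing pollen, AT3G07840, a pectin lyase-like protein, had signals of 107 and 137 in large sterile J10 buds, against 3158 and 1572 in large fertile J10 buds, and of 147 and 82.5 in large sterile J03 buds, against 4561 and 3368 in large fertile J03 buds. In large sterile against large fertile buds 2 of the 5 were called lower in J10 and 4 in J03. Of all 14021 tested probe sets, 271 were called lower in J10 and 106 in J03 in these comparisons. ACT11, a pollen actin, was not called, with 507 and 597 in large sterile J03 buds, against 724 and 359.8 in large fertile J03 buds. None of the 5 was called in the comparisons among sterile buds. The pistil gene SPT, a regulator of carpel growth, had signals of 713 and 680.0 in middle sterile J10 buds, against 537 and 755 in middle fertile J10 buds, and was not called in any comparison. The ovule gene INO had 735 and 583 in large sterile J10 buds, against 439 and 286 in large fertile J10 buds, and 277 and 383 in large sterile J03 buds, against 161 and 106 in large fertile J03 buds. The photosynthesis gene RCA had 1128 and 1032 in small sterile J10 buds, against 2361 and 1653 in small fertile J10 buds. Floral organ identity genes could not be checked, because none of the 8 in the list is named on the array here. Whether the buds carry the stated Ms and Rf alleles was not tested.

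**Figure D1:**
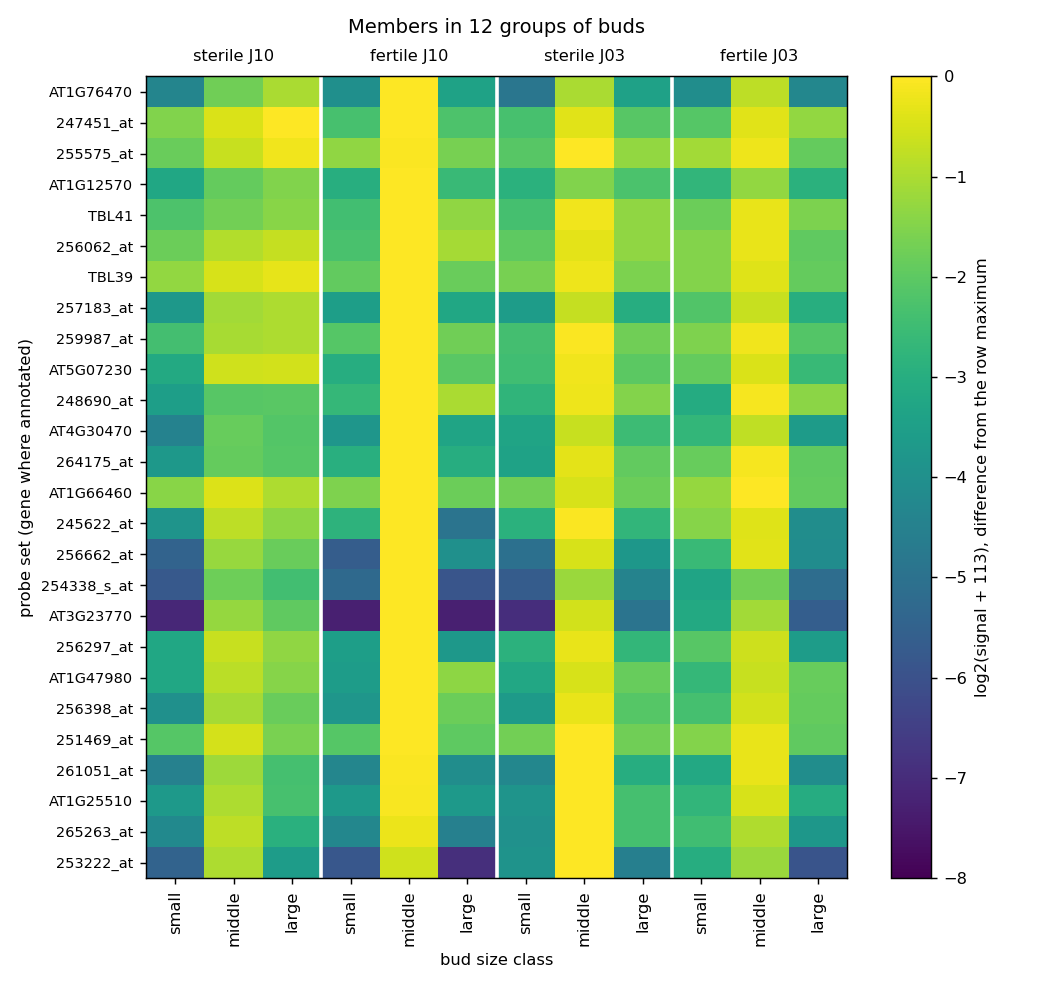
Mean level of each of the 26 members (rows) in the 12 groups (columns: small, middle and large buds of sterile J10, fertile J10, sterile J03 and fertile J03), as log2 of the signal plus the offset minus the highest group of that row. Middle buds are the brightest of the 3 sizes for all 26 in fertile J10 and fertile J03, as the rule requires. They are also the brightest for 26 of 26 in sterile J03 and for 15 of 26 in sterile J10. Of all probe sets with a mean signal of at least 500 in middle buds of those plants, this holds for 38.1% and 33.5%.

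Members were higher in middle than in small sterile buds of both lines. In sterile J10 all 26 had a positive change, and 17 passed the test (adjusted p under 0.05 in limma's moderated linear model, adjusted over 14021 probe sets). Over the whole array 0.364% of probe sets were called higher in that comparison. In sterile J03 all 26 were again positive and 25 passed, where 1.28% of all tested probe sets were called higher. The median change of the members was 2.55 on the log2 scale in sterile J10 and 2.77 in sterile J03, with ranges of 0.54 to 5.85 and 1.12 to 6.42, and that of all tested probe sets was -0.02 and -0.01. A bulk bud sample cannot tell fewer cells of a type apart from less RNA per cell. Both replicates of middle buds lay above both of small buds for 25 members in sterile J10 (background 16.8%) and for 26 in sterile J03 (background 21.4%). The difference between the lines in this change had a median of -0.53. It passed the test for 0 members in limma, where 0.0999% of all tested probe sets were called. An unadjusted p under 0.05 was seen for 4 members and for 868 of 14021 tested probe sets. The count in sterile J10 fell to 7 without replicate 1 of its small buds, 9 without replicate 2 of its small buds and 7 without replicate 2 of its middle buds. In sterile J03 it fell to 16 without replicate 2 of its middle buds.

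From middle to large buds all 26 members fell in sterile J03, and 15 of 26 fell in sterile J10, where 1 passed the test. In sterile J03 all 26 members were lower in large than in middle buds, 14 of them past the test, with a median change of -1.86 (range -4.53 to -0.77) where 0.285% of all tested probe sets were called lower. In sterile J10, 15 changes were negative and 11 positive, with a median of -0.39 (range -2.54 to 0.71). Only 265263_at passed there, as lower, where 0.0499% of all tested probe sets were called lower, and 0 members were called higher (0.0214% of all). Large buds held a median of 77.3% of the middle signal in sterile J10, against 10.6% in fertile J10, and 27.3% in sterile J03, against 20.2% in fertile J03. The fertile percentages belong to the values that chose the members. Large buds lay below middle buds in both replicates for 12 members in sterile J10 (background 15.2%), above them for 3 (background 16.2%), and below them for 26 in sterile J03 (background 20.3%).

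The difference between the lines in this later change was positive for 26 of 26 members, with a median of 1.70 and a range of 0.23 to 3.79. None passed the adjusted threshold in limma, where 0.0143% of all tested probe sets were called higher. An unadjusted p under 0.05 was seen for 20 members and for 825 of 14021 tested probe sets. The smallest adjusted p was that of AT5G07230, 0.075, with a difference of 1.98 ± 0.37 (SE). Replicates of large sterile J03 buds disagreed over the members. Replicate 2 lay above replicate 1 for 26 of 26, by a median of 1.30 on the log2 scale, and 16 differed by 1 or more, against 4.57% of 12155 bright probe sets. In fertile J03, replicate 2 lay above replicate 1 for 22 of 26 members in small and also in large buds, with 8 members differing by 1 or more in each, against 3.23% and 3.33% of bright probe sets. In large fertile J10 buds it did so for 21 of 26. How many members passed for the difference between the lines depended on which replicate of large sterile J03 buds was left out. The 14 calls in sterile J03 became 1 without replicate 1 of its large buds, 20 without replicate 2 of them, 9 without replicate 1 of its middle buds and 1 without replicate 2 of them. The single call in sterile J10 was lost without either replicate of its middle buds or without replicate 2 of its large buds.

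**Figure D2:**
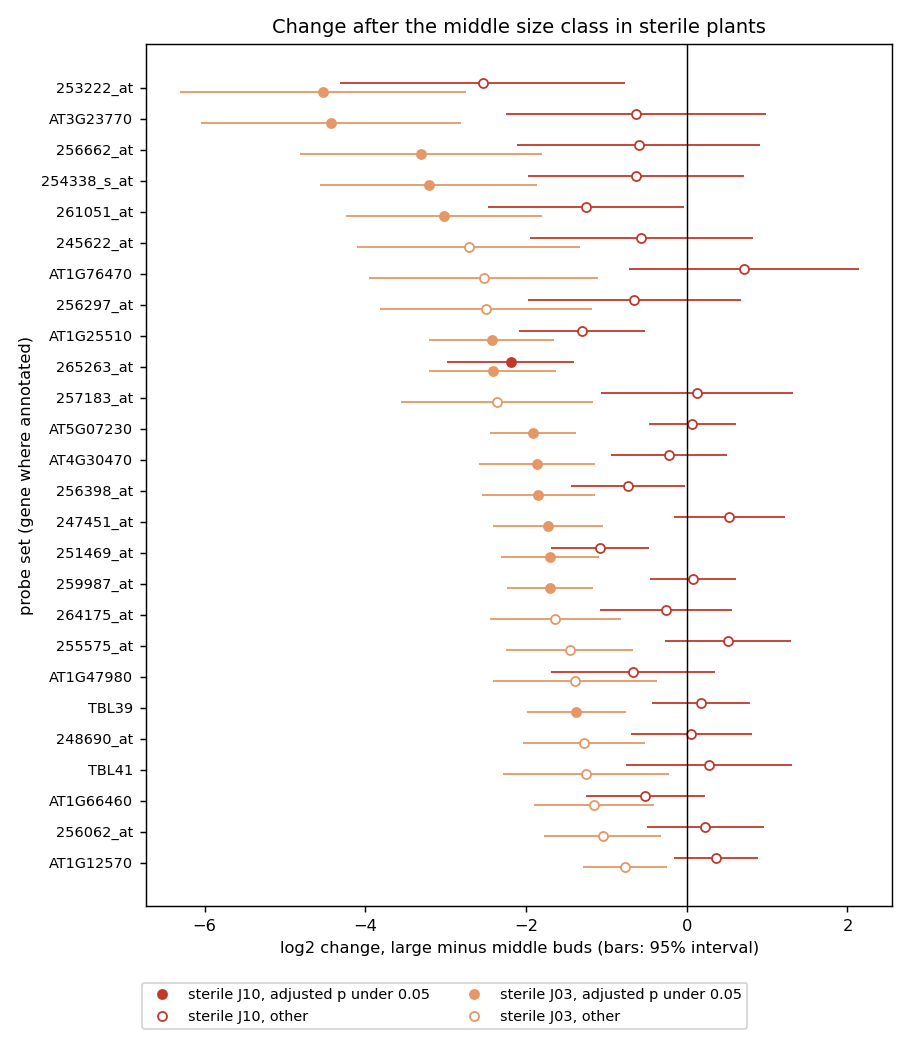
Change of each member from middle to large buds in sterile J10 and sterile J03, as log2 change with its 95% interval from limma, filled where the adjusted p is under 0.05. All 26 points of sterile J03 lie below 0 and 14 are filled, and those of sterile J10 spread on both sides of 0 with 1 filled.

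A pair of array measures moved with these groups, and their part in the results was not tested. The first was the log2 ratio of 3' to 5' signal of the control transcripts, commonly read for RNA integrity and labelling. Its GAPDH 3' probe set had group means of only 104 to 390, against 2173 to 7164 for the 5' one. That is dim beside array medians of 339 to 410.1, and whether the ratio reflects RNA integrity here was not tested. The ratio averaged -0.35 ± 0.26 in sterile J10 and -0.81 ± 0.12 in fertile J10 (SD, n = 6 replicates each; two-sided exact permutation p 0.0043, 0.0065 after adjustment over 3 tests). Sterile J03 had -1.02 ± 0.19 and fertile J03 -0.89 ± 0.16 (two-sided exact permutation p 0.232). Sterile J10 exceeded sterile J03 by 0.67 (two-sided exact permutation p 0.0022, adjusted 0.0065). Within sterile J10 the ratio was -0.45 and -0.29 in middle and -0.13 and -0.00 in large buds, and within sterile J03 it was -1.06 and -1.13 and -0.79 and -0.96. A fit that took the ratio into account left the counts by stage within each sterile line within 1.5 times those above. The second was the mean signal of the 25S ribosomal RNA control. In small, middle and large buds it was 8956, 623 and 570.0 in sterile J10, against 10660.4, 2313 and 10352 in fertile J10. In J03 buds of those sizes it was 4869, 603 and 989 in sterile plants, against 7371, 2840 and 3914 in fertile plants.

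**Figure D3:**
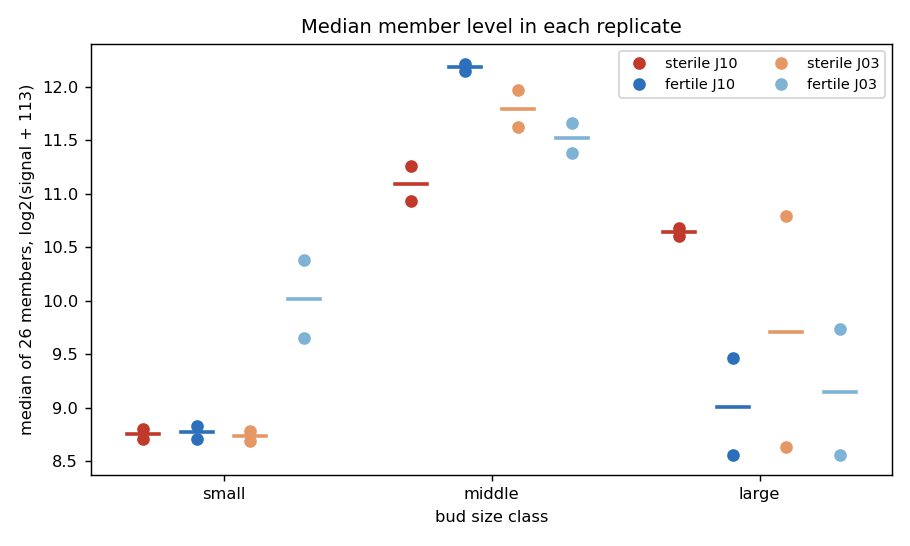
Median over the 26 members of the log2 level in each replicate (points; bars are group means) for small, middle and large buds. Large buds read 10.68 and 10.60 in sterile J10, 8.56 and 9.46 in fertile J10, 8.63 and 10.79 in sterile J03 and 8.56 and 9.74 in fertile J03.

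A9 (AT5G07230), a tapetum-specific gene of Arabidopsis that codes for a small secreted protein, was the clearest of the annotated members. Its signals were 644 and 683 in small, 4104 and 4708 in middle and 4183 and 4928 in large sterile J10 buds, against 834 and 619.5, 6334 and 7041 and 1063 and 2170.4 in fertile J10 buds of those sizes. In J03 it had 934 and 1341 in small, 6233 and 5624 in middle and 1206 and 2008 in large sterile J03 buds, against 1677 and 1759, 5089 and 4678 and 760.0 and 1331 in fertile J03 buds of those sizes. Large sterile J10 buds stayed near the middle level, whereas both replicates of large buds were below middle buds in fertile J10 and in both J03 groups. Middle exceeded small buds by 2.52 ± 0.26 (SE) in sterile J10 (adjusted p 1.4e-05) and by 2.29 ± 0.26 in sterile J03 (adjusted p 5.2e-06). Large minus middle was 0.07 ± 0.26 in sterile J10 (95% interval -0.47 to 0.61) and -1.91 ± 0.26 in sterile J03 (adjusted p 0.0005). These stage calls of A9 were kept in all 15 alternative settings. In large buds sterile J10 exceeded sterile J03 by 1.55 ± 0.26 (adjusted p 0.001), a call lost in 1 of 15 settings, the fit with the RNA ratio as a term (difference 2.26, adjusted p 0.12).

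A group of 3 annotated members belongs to families that act on the cell wall. AT3G23770 is in glycosyl hydrolase family 17, whose members include enzymes that cleave beta-1,3-glucan, the polymer of the callose wall around tetrads. It had the largest middle-over-small change of the 26 in both sterile lines. Its signals were 346 and 336 in small, 23453 and 29614 in middle and 19235 and 13846 in large sterile J10 buds, against 288 and 291, 65325 and 60864 and 260.1 and 315 in fertile J10 buds of those sizes. Its J03 signals were 513 and 302 in small, 32672 and 57297 in middle and 293 and 10509.5 in large sterile J03 buds, against 5958 and 8170.4, 35416 and 24324 and 563 and 2368 in fertile J03 buds of those sizes. Small and large fertile J10 buds were both near the low end, but large sterile J10 buds kept most of the middle level, and small fertile J03 buds were already well above the other small buds. The change from small to middle was 5.85 ± 0.78 in sterile J10 (adjusted p 0.00026) and 6.42 ± 0.78 in sterile J03 (adjusted p 1.3e-05). From middle to large it was -0.64 ± 0.78 in sterile J10 (95% interval -2.25 to 0.98) and -4.43 ± 0.78 in sterile J03 (adjusted p 0.0051). The 2 replicates of large sterile J03 buds differed widely, and without replicate 1 the J03 change was -2.04 (adjusted p 0.11). Large sterile J10 buds exceeded large sterile J03 buds by 3.01 ± 0.78 (adjusted p 0.037), or by 0.62 (adjusted p 0.64) without that replicate, and the call was lost in 7 of 15 settings. These were also without either replicate of large sterile J10 buds, with no filter, with first hybridisations only, with the RNA ratio as a term and in a fit of the compared groups alone. The J03 fall was also lost without replicate 2 of middle buds and with the compared groups only (highest adjusted p over all settings 0.17).

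TBL39 and TBL41 are of the trichome birefringence-like family, which includes enzymes that acetylate cell wall polysaccharides. TBL39 had signals of 814 and 951 in small, 1179 and 2195 in middle and 1792 and 1922 in large sterile J10 buds, against 404 and 692, 1625 and 3301 and 546 and 588 in fertile J10 buds of those sizes. The J03 values were 587 and 748 in small, 1989 and 1999 in middle and 557 and 900.2 in large sterile J03 buds, against 788 and 736, 1488 and 2081 and 526 and 549 in fertile J03 buds of those sizes. TBL39 stayed as high in large as in middle sterile J10 buds and was back near the small-bud level in the other large groups. It was higher in middle than in small sterile J03 buds by 1.45 ± 0.30 (adjusted p 0.0067), and the change in sterile J10 was 0.81 ± 0.30 (adjusted p 0.32). The change from middle to large in sterile J03 was -1.37 ± 0.30 (adjusted p 0.029), and large sterile J10 buds exceeded large sterile J03 buds by 1.28 ± 0.30 (adjusted p 0.018). The early rise was lost without replicate 1 of small or either replicate of middle sterile J03 buds, the later fall without either replicate of middle or replicate 1 of large sterile J03 buds, with quantile normalization and with first hybridisations only, and the line difference without either replicate of large sterile J10 or replicate 1 of large sterile J03 buds and with the RNA ratio as a term (highest adjusted p 0.1, 0.54 and 0.69 over all settings). TBL41 had signals of 49.6 and 142 in small, 83.8 and 325 in middle and 291 and 208 in large sterile J10 buds, against 41.5 and 96.1, 698 and 1024 and 88.2 and 605 in fertile J10 buds of those sizes. J03 buds read 109 and 46.3 in small, 689.5 and 795 in middle and 277 and 261 in large sterile J03 buds, against 95.9 and 247, 646 and 716 and 98.3 and 376 in fertile J03 buds of those sizes. TBL41 had no middle peak in sterile J10, where the mean of large buds was above that of middle buds and the replicates of middle buds overlapped those of small buds. Its change from small to middle was 0.54 ± 0.50 in sterile J10 (adjusted p 0.84), the smallest of the 26, and 2.17 ± 0.50 in sterile J03 (adjusted p 0.018), where leaving out any 1 of the 4 replicates or using first hybridisations only ended the call (highest adjusted p 0.2).

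**Figure D4:**
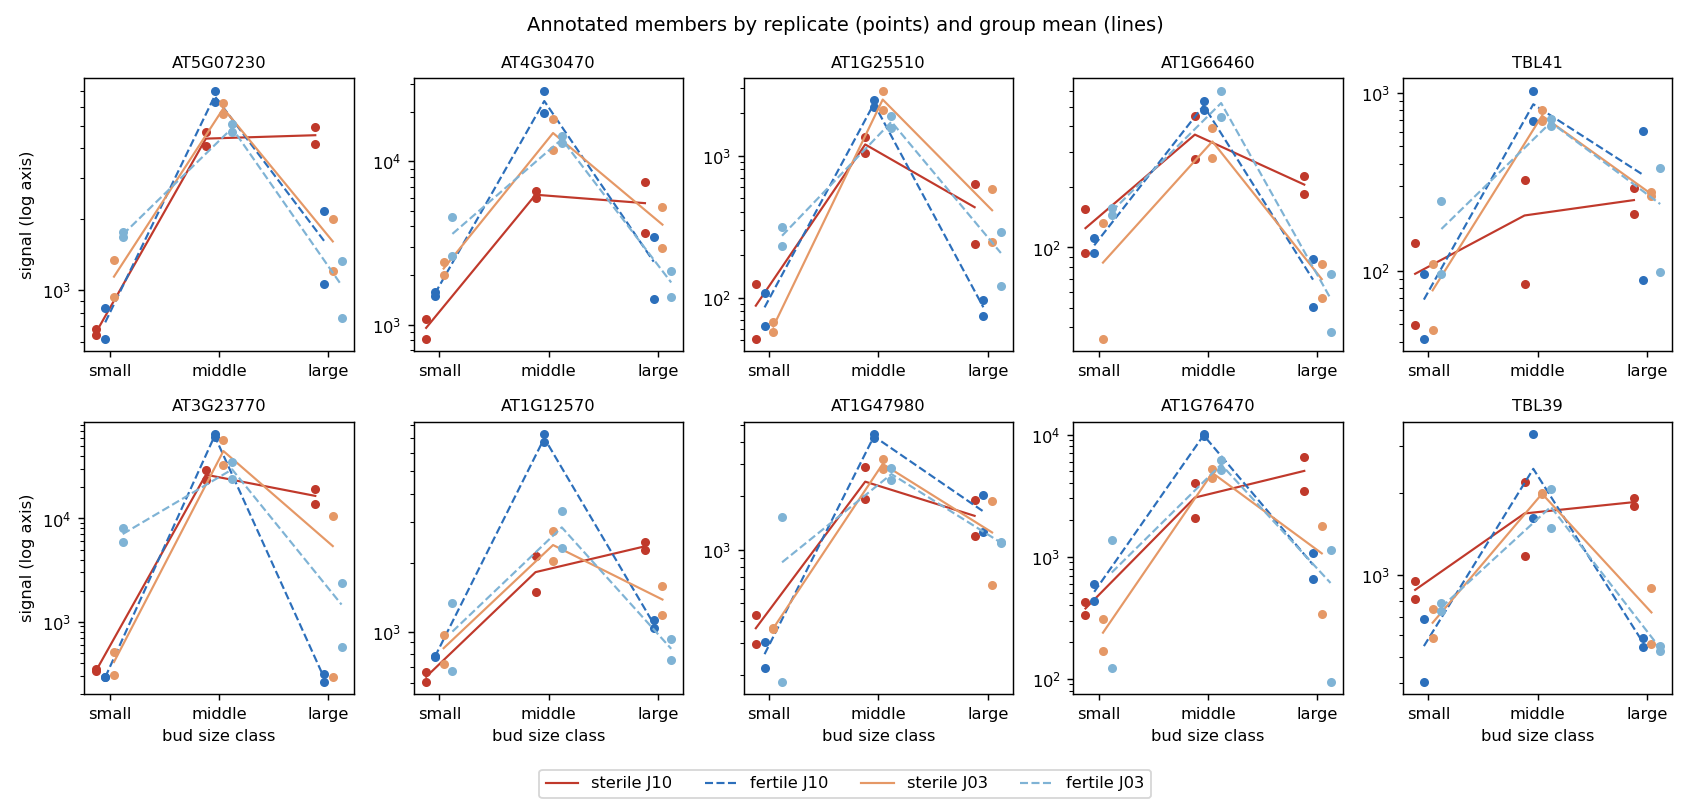
Signal (log axis) of the 10 annotated members in small, middle and large buds; points are replicates and lines group means, solid for sterile and dashed for fertile plants. In large buds the sterile J10 mean is above the other 3 for all annotated members but AT1G47980 and TBL41, with that of AT1G25510 close to sterile J03.

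A further 3 members code for oxidoreductases. AT4G30470 and AT1G76470 are of the NAD(P)-binding Rossmann-fold family of cinnamoyl-CoA reductase-like proteins, and AT1G12570 is of the glucose-methanol-choline oxidoreductase family. AT4G30470 had signals of 1088 and 819.7 in small, 5939 and 6559 in middle and 3617 and 7481 in large sterile J10 buds, against 1591 and 1501, 27099 and 19818 and 1424 and 3433 in fertile J10 buds of those sizes. For J03 the signals were 1999 and 2411 in small, 11765 and 18106 in middle and 2930.1 and 5264 in large sterile J03 buds, against 2639 and 4553, 14324 and 13029 and 1477 and 2144 in fertile J03 buds of those sizes. Middle sterile J10 buds were below all other middle buds, and the change from small to middle was still 2.58 ± 0.35 in sterile J10 (adjusted p 0.00026) and 2.68 ± 0.35 in sterile J03 (adjusted p 3.5e-05). The fall from middle to large was called in sterile J03 (-1.87 ± 0.35, adjusted p 0.0076), and in sterile J10 the change was -0.23 ± 0.35 (adjusted p 0.97). The J03 fall was lost without replicate 2 of middle or replicate 1 of large buds and with first hybridisations only (highest adjusted p 0.34). AT1G76470 had signals of 424 and 330.4 in small, 2094 and 4003 in middle and 3472 and 6606 in large sterile J10 buds, against 600.5 and 430.4, 10040.5 and 9677 and 652 and 1066 in fertile J10 buds of those sizes. Its values in J03 were 308 and 169.9 in small, 4435 and 5268 in middle and 340.5 and 1789 in large sterile J03 buds, against 123 and 1362, 6216 and 5152 and 94.2 and 1126 in fertile J03 buds of those sizes. It is the member with the most positive large-minus-middle change in sterile J10, 0.71 ± 0.69 (95% interval -0.71 to 2.14), and its replicates spread over more than 1 log2 unit in large buds of sterile and fertile J03. It passed from small to middle in sterile J03 (3.96 ± 0.69, adjusted p 0.0012), and in sterile J10 the change was 2.64 ± 0.69 (adjusted p 0.096).

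AT1G12570 had signals of 603 and 669 in small, 1489.8 and 2148 in middle and 2265 and 2449.5 in large sterile J10 buds, against 773 and 781, 6711 and 7262 and 1035 and 1129 in fertile J10 buds of those sizes. In J03 it had 971 and 724 in small, 2025 and 2751 in middle and 1177 and 1585 in large sterile J03 buds, against 671 and 1331, 3376 and 2326 and 755 and 929.6 in fertile J03 buds of those sizes. Sterile J10 was low in middle buds and high in large ones relative to fertile J10. Its rise from small to middle passed in both sterile lines, at 1.36 ± 0.25 in J10 (adjusted p 0.0083) and 1.37 ± 0.25 in J03 (adjusted p 0.0021). The call was lost in J10 without either replicate of small or replicate 2 of middle buds, and in J03 without replicate 2 of small or of middle buds, and in both with first hybridisations only (highest adjusted p 0.19 and 0.091). No later change was called, with 0.36 ± 0.25 in sterile J10 (adjusted p 0.88) and -0.77 ± 0.25 in sterile J03 (adjusted p 0.29).

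The remaining annotated members code for an aspartyl protease family protein (AT1G25510), a protein kinase family protein (AT1G66460) and a desiccation-like protein (AT1G47980). AT1G25510 had signals of 124 and 51.4 in small, 1354 and 1041 in middle and 628 and 237 in large sterile J10 buds, against 108 and 62.6, 2191 and 2448 and 74.5 and 96.3 in fertile J10 buds of those sizes. Its J03 signals were 67.4 and 57.6 in small, 2101 and 2857 in middle and 245 and 579 in large sterile J03 buds, against 229 and 316, 1902 and 1556 and 121 and 291 in fertile J03 buds of those sizes. It peaked in middle buds of all 4 kinds of plant, and large sterile buds stayed between the small and the middle levels. From small to middle it rose by 2.64 ± 0.38 in sterile J10 (adjusted p 0.00053) and 3.87 ± 0.38 in sterile J03 (adjusted p 5e-07). It was lower in large than in middle sterile J03 buds by -2.43 ± 0.38 (adjusted p 0.0014), and the change in sterile J10 was -1.30 ± 0.38 (adjusted p 0.38). The J03 fall was lost without replicate 2 of middle or replicate 1 of large buds (highest adjusted p 0.12).

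AT1G47980 had signals of 429 and 298 in small, 1913 and 2894 in middle and 1894 and 1199.5 in large sterile J10 buds, against 303 and 217, 4195 and 4423 and 1252 and 2022 in fertile J10 buds of those sizes. The J03 values were 361 and 366 in small, 2828 and 3213 in middle and 636 and 1862 in large sterile J03 buds, against 182 and 1518, 2849 and 2448 and 1098 and 1093 in fertile J03 buds of those sizes. Middle buds were above small and large buds in each kind of plant, with one fertile small J03 replicate high. It rose from small to middle by 2.38 ± 0.49 in sterile J10 (adjusted p 0.021), lost in 5 of 15 settings (without either replicate of small or replicate 2 of middle buds, with first hybridisations only and with the RNA ratio as a term; highest adjusted p 0.23), and by 2.87 ± 0.49 in sterile J03 (adjusted p 0.001). AT1G66460 had signals of 156 and 93.5 in small, 453 and 276 in middle and 226 and 185 in large sterile J10 buds, against 94.0 and 111, 481 and 536 and 50.8 and 87.5 in fertile J10 buds of those sizes. J03 buds read 133 and 35.2 in small, 394 and 280.4 in middle and 56.4 and 82.9 in large sterile J03 buds, against 146 and 156, 445 and 602 and 73.5 and 38.1 in fertile J03 buds of those sizes. It is the 1 member that entered the fit through fertile groups alone. It was the only member not called from small to middle in sterile J03, where its change was 1.12 ± 0.36 (adjusted p 0.13), and in sterile J10 the change was 1.01 ± 0.36 (adjusted p 0.28).

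All 16 unnamed members read higher in middle than in small buds of both sterile lines. Of these, 11 were called in sterile J10 and 16 in sterile J03, where 0.364% and 1.28% of all tested probe sets were called higher. Probe set 256662_at rose steeply from small to middle, by 4.22 ± 0.73 in J10 (adjusted p 0.0045) and 4.62 ± 0.73 in J03 (adjusted p 0.00037). Its signals were 48.05 and 103 in small, 3056 and 3776 in middle and 1438 and 3368 in large sterile J10 buds, against 35.1 and 69.2, 8582 and 7735 and 166 and 852 in fertile J10 buds of those sizes. For J03 the signals were 122 and 147 in small, 4755 and 7169 in middle and 61.4 and 1971 in large sterile J03 buds, against 861 and 1847, 7027 and 5625 and 123 and 847 in fertile J03 buds of those sizes. Large sterile J10 buds stayed well above small ones in both replicates, the replicates of large sterile J03 buds differed widely, and small fertile J03 buds were above the other small buds.

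Probe set 253222_at had signals of 943 and 1146 in small, 30426 and 21331 in middle and 4996 and 3393 in large sterile J10 buds, against 1475 and 384, 35576 and 31297 and 239.7 and 370.4 in fertile J10 buds of those sizes. Its values in J03 were 3400.2 and 3119 in small, 44386 and 56569.8 in middle and 311 and 10941 in large sterile J03 buds, against 4202 and 8767, 23562 and 20023 and 251 and 1757 in fertile J03 buds of those sizes. Large buds were below middle buds in all 4 kinds of plant. From middle to large it changed by -2.54 ± 0.86 in sterile J10 (adjusted p 0.53) and -4.53 ± 0.86 in sterile J03 (adjusted p 0.0088). Probe set 265263_at, the single member called lower in sterile J10, had 175 and 133 in small, 2470.1 and 2891 in middle and 789 and 352 in large sterile J10 buds, against 95.8 and 177, 4569.8 and 3585 and 62.9 and 139 in fertile J10 buds of those sizes. In J03 it had 336 and 111 in small, 4635 and 4882 in middle and 514 and 1344 in large sterile J03 buds, against 572 and 1064, 2418 and 2411 and 260.5 and 224 in fertile J03 buds of those sizes. Both replicates of large buds were well below middle ones in each sterile line. Its change was -2.19 ± 0.38 in sterile J10 (adjusted p 0.014) and -2.42 ± 0.38 in sterile J03 (adjusted p 0.0016). In contrast 247451_at had 385 and 111 in small, 540.0 and 648 in middle and 821 and 881 in large sterile J10 buds, against 77.4 and 84.2, 793 and 899.5 and 112 and 70.8 in fertile J10 buds of those sizes. Its J03 signals were 62.5 and 93.8 in small, 674 and 606 in middle and 106 and 123 in large sterile J03 buds, against 108 and 108, 673 and 611 and 292 and 262 in fertile J03 buds of those sizes. Large sterile J10 buds exceeded every other large group, and exceeded large sterile J03 buds by 2.08 ± 0.33 (adjusted p 0.00064).

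Between the sterile lines, most members read lower in J10 than in J03 in middle buds and higher in large buds, but few passed the test. In middle buds 25 of 26 differences were negative with a median of -0.74, and 3 passed as lower (248690_at, 264175_at and 259987_at) where 1.70% of all tested probe sets were called lower. In large buds 23 of 26 were positive with a median of 0.76, and 4 passed as higher (AT3G23770, 247451_at, AT5G07230 and TBL39) where 0.991% were called higher. In small buds 17 of 26 were negative with a median of -0.19, and 0 passed in limma, where 1.25% of all tested probe sets were called. There, 4 members and 1728 of 14021 tested probe sets had an unadjusted p under 0.05. Probe set 248690_at showed the largest difference in middle buds, -1.92 ± 0.37 (adjusted p 0.0046), with signals of 1799 and 1274 in middle sterile J10 buds, against 4859 and 6832 in middle sterile J03 buds. The middle-bud count became 1 or 0 when any 1 replicate of middle buds was left out: 1 without replicate 1 of sterile J10 or of sterile J03, and 0 without replicate 2 of either. The large-bud count became 2 without either replicate of sterile J10 or without replicate 1 of sterile J03, and 12 without replicate 2 of sterile J03. Both counts became 0 in the fit with the RNA ratio as a term, where the large-bud difference was 2.26 for AT5G07230, 4.72 for AT3G23770 and 0.93 for TBL39 (adjusted p 0.12, 0.36 and 0.69).

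Sterile buds set against fertile buds of the same line and size are given as a description, since the fertile arrays chose the members and nothing is read from the counts. The rule took high middle and low large levels in fertile buds. That choice favours lower middle and higher large values in sterile buds, so shares of all tested probe sets are not a fair background here. In middle J10 buds 26 of 26 were lower in sterile plants, with a median difference of -1.03 and a median signal ratio of 0.48 (range 0.23 to 0.77), and 4 were called where 0.492% of all tested probe sets were called lower. In large J10 buds 22 of 26 were higher in sterile plants, with a median difference of 1.5 and a median signal ratio of 3.35 (up to 57.5, for AT3G23770), and 12 were called where 0.499% were called higher. In small J10 buds the median difference was -0.11, and 0.107% of all tested probe sets were called. In middle J03 buds 17 were higher and 9 lower in sterile plants, with a median of 0.18. Small sterile J03 buds had lower values for 25 of 26, with a median of -0.79, and large sterile J03 buds had higher values for 21 of 26, with a median of 0.54. No member was called in J03 in limma. Of all tested probe sets 0.00713% were called in small, 0.0285% in middle and 0.963% in large J03 buds. An unadjusted p under 0.05 in small J03 buds was seen for 11 members and for 970 of 14021 tested probe sets. Small buds held a median of 15.1% of the middle signal in sterile J10, against 7.38% in fertile J10, and 11.9% in sterile J03, against 30.9% in fertile J03.

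Applied to each kind of plant alone, the thresholds of the rule were met by 20 probe sets in sterile J10 (0.0879% of 22746), 5 of them members, and by 63 in sterile J03 (0.277%), 24 of them members. Both sterile lines met them for 11 probe sets, of which 5 are members. Fertile J10 met them for 63 (0.277%) and fertile J03 for 44 (0.193%). Just inside the rule lay 248690_at, with a smallest difference of 1.00 between middle and another size in the fertile lines, 247451_at with 1.05 and 245622_at with 1.06. Just outside lay AT5G47635 and AT3G53100, each with 0.98, and 260693_at with 0.95. Members followed 1 profile over the 12 group means, with correlations to the mean of the other members from 0.73 (248690_at) to 0.99 (261051_at), as a description since the rule sets part of that shape. The annotated probe sets outside the set that were most like this profile were AT3G53100 (r = 0.98), AT5G64870 (0.91), AT1G20150 (0.90), AT5G63260 (0.87) and AT5G47635 (0.87), over 12 group means that share their arrays with the members.

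Other genes of the anther were read from lists of known roles. Of 5 tested genes in a list of pollen wall and tapetum enzymes, limma called 4 higher in middle than in small sterile J03 buds. These were SHT, AT4G00040, AT4G29250 and AT1G33430. The other was SWEET8, of a sugar exporter family and not an enzyme. In sterile J10 limma called 0. The median change of the 5 was 3.07 in sterile J03 and 0.92 in sterile J10. AT1G33430 had mean signals of 1006 in small and 2007 in middle sterile J10 buds, against 1138 and 2424 in sterile J03 buds. Of all tested probe sets 1.28% were called higher in sterile J03 and 0.364% in sterile J10. SHT, spermidine hydroxycinnamoyl transferase, makes phenolamides of the pollen coat. It had signals of 637 and 1082 in middle sterile J10 buds, against 8249.9 and 6409 in middle fertile J10 buds, and 6663 and 9874 in middle sterile J03 buds, against 13589.7 and 15161 in middle fertile J03 buds. Its change from small to middle was 4.57 in sterile J03 (adjusted p 1.6e-08), and the lines differed in it by -3.24 ± 0.51 (adjusted p 0.0051). Sterile J10 was called lower than sterile J03 in middle buds for 3 of the 5, where 1.70% of all tested probe sets were called lower. In large sterile against large fertile J10 buds 2 of the 5 were called lower, with a median difference of -1.09. Of all 14021 tested probe sets 271 were called lower there. Mean signals of SHT in large J10 buds were 1834 in sterile and 9173 in fertile plants.

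Of 3 tapetum regulators tested, AMS, a transcription factor of tapetum development, rose from small to middle in sterile J03 by 1.29 (adjusted p 0.008 in limma). It had signals of 859 and 891 in small, 1833 and 1946 in middle and 1002 and 1196 in large sterile J10 buds. In sterile J03 buds of those sizes it had 1033 and 740.1, 2178 and 2428 and 697 and 1360.5. Large fertile buds had 1669 and 1650 in J10 and 1483 and 1574 in J03. Mean signals of EMS1 and AT2G31210 in large J10 buds were 458 and 430 in sterile, against 791 and 679 in fertile plants. None of the 3 was called in large sterile against large fertile buds, with median differences of -0.57 in J10 and -0.16 in J03. Of 5 anther lipid transfer and small secreted proteins, A9 included, 2 were called higher from small to middle in each sterile line (A9 in both, AT5G52160 in J10, AT1G66850 in J03). From middle to large 1 was called lower in J10 (AT3G07450, -2.14 ± 0.40, adjusted p 0.022) and 3 in J03 (AT3G07450, AT5G52160 and A9). Of 4 sugar transport and cleavage genes, SWEET3, a sugar exporter family member, rose and then fell in both sterile lines, by 2.00 and -2.26 in J10 and 1.34 and -1.70 in J03. Of 4 LEA and desiccation genes, AT2G03740 and AT2G03850 were called higher from small to middle in sterile J03. AT2G03740 was called higher from middle to large in sterile J10, by 1.85 ± 0.31 (adjusted p 0.011). Of 3 pollen coat genes ATA27 was called higher in middle than in small sterile J03 buds, by 2.32. It was not called in sterile J10, where it had signals of 71.9 and 61.8 in small and 436 and 650 in middle buds. Among 3 plastid fatty acid, 2 phenylpropanoid, 5 maturing pollen and 2 pistil genes none was called from small to middle or from middle to large in either sterile line. Of the 3 green tissue genes RCA and PRK were lower in sterile J10 than in sterile J03 at each size, by 1.04 to 1.32 in size, and PORB was higher in middle buds. INO differed by 0.84 ± 0.35 in large buds (adjusted p 0.23). The part of these genes' tissues in the line differences of the members was not tested. The meiosis list had no tested gene.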

How the data were processed

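Signal intensities on a linear scale were deposited by the authors, who used MAS5 according to the notes on processing given with the labels (version not given in the sources used here). Each array's 2% trimmed mean was 500.0. Of 22810 probe sets, 64 were controls, and 13513 of the rest had 1 gene, 503 several and 8730 none here. No column was left unused.

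From the deposited signals, log2 of the signal plus the offset was taken, 2 hybridisations of a replicate were averaged (the titles do not state which tech_rep belongs to which biol_rep; arrays of the same number had a median correlation of 0.855 in J10 and 0.846 in J03, against 0.840 and 0.850 for arrays of other numbers, and the duplicate correlation was 0.043), and limma 3.58.1 in R 4.3.3 fitted all 12 groups (12 residual degrees of freedom, trend on). Probe sets at or above the array median in both replicates of a group entered (14021), all 26 members among them, 25 of these through a sterile group. P-values were adjusted by Benjamini-Hochberg and called under 0.05. They measure only the spread between these replicates, which may be technical. Array measures had exact permutation tests. Python 3.11.15, scipy 1.17.1 and matplotlib 3.10.9 did the rest. The fit was tested on simulated data, and the outcome is not given here.

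The members and gene lists were chosen with earlier results of these data known, sterile arrays included, so tests in sterile buds are independent of the rule's values but not of that choice. Any of the 10 annotated members could be named, as could the 5 annotated probe sets most like them by correlation and those next to the rule's threshold; the unnamed members described were chosen after their values were seen. Probes are of Arabidopsis, so signals compare samples and never probe sets. Alternatives were the offset, no filter, quantile normalization, the hybridisations and groups in the fit, the RNA ratio as a covariate, the replicate block and each replicate left out.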

Additional observations from a re-analysis of the deposited data

Results flagged for a closer look

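Of 132 groups of 4 arrays checked (the 10 annotated members and the member median), 5 held 1 array far from the other 3 on the log2 scale. Chance gives about 1 in 20 groups, and 3.79% were seen here. AT1G25510 read 186.8 on the first hybridisation of replicate 1 of small sterile J10 buds, against 51.4 to 61.1 on the other arrays of that group. TBL41 read 133.7 on the second hybridisation of replicate 2 of large sterile J10 buds, where the others read 282.3 to 291.5. AT1G47980 read 2494.1 on the first hybridisation of replicate 1 of middle sterile J03 buds, and the others 3147.6 to 3279.2. AT5G07230 read 2928.9 on the first hybridisation of replicate 2 of large sterile J03 buds, and the others 1088.0 to 1260.5. TBL39 read 679.1 on the second hybridisation of replicate 2 of small fertile J03 buds, and the others 783.7 to 793.1.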

How the results depend on the processing

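No called change of an annotated member turned its direction in the settings run. Beside the counts given above, members called lower from middle to large in sterile J10 (1) became 0 with an offset of 32 or first hybridisations only, and 2 with the compared groups only or a replicate block within each line. The 14 called lower in sterile J03 became 7 with first hybridisations only and 7 with the compared groups only. For sterile J10 against J03, the small-bud count (0) became 1 when the 48 arrays entered singly, with a random term for the replicate, 2 with the compared groups only and 1 with a replicate block within each line. The middle-bud count (3) became 1 with the offset of 32, 1 with no filter, 1 with first hybridisations only, 5 with 48 arrays, 0 with the 3' to 5' covariate and 5 with the block within lines. The large-bud count (4) became 9 with 48 arrays, 0 with the covariate and 7 with the block within lines. The count for the line difference of the later change (0) became 4 with 48 arrays, 2 with the covariate, and 1 with a replicate block and with one within each line. Leaving out 1 replicate gave 7 to 13 and 16 to 19 members for the small-to-middle rise in sterile J10 and J03, 0 to 1 and 1 to 20 for the later fall, 0 to 0, 0 to 1 and 2 to 12 for the line differences in small, middle and large buds, and 0 to 0 and 0 to 10 for the line differences of the earlier and later change. Where a replicate was left out, the lone replicate of that group was assumed to vary like the others. The cause of these moves was not tested. Settings chosen after seeing the data (without the array least like its group, and a filter on sterile groups only) moved no count by over 1.5 times. Replicate numbers were not taken as pairs: the deviations of same-numbered replicates correlated at 0.098 to 0.319 over 15 pairs of groups in J10 (14 of them over 0.1) and at -0.046 to 0.093 over 15 in J03, and the replicate block changed no other count by over 1.5 times. Dim probe sets limit the precision of small-bud levels, and 2 replicates a group limit all tests.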
